A study of Mus musculus with 12 samples.

Results

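Ttr, Folr1, Kl, Clic6, Aqp1, Otx2, Enpp2, Prlr and Calml4 are 9 genes of the choroid plexus, picked by symbol out of the 55487 genes that each of 12 count files of mouse striatum lists, and all 9 passed the filter on low counts that left 21309 genes. In these libraries the 9 genes moved together over a wide range: Ttr, the most variable of them, differed 41.5-fold between the lowest and the highest library, and every group held libraries with much and with little of it. Each of the 36 pairs of genes was correlated across the libraries, and none of the 9 genes was called between any of the groups. The striatum borders the lateral ventricle, in which the choroid plexus lies, and no source used here says how the tissue was cut out.

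The libraries came from 12 mice, 3 in each of 4 groups. The double mutants (labelled cGAS-KO;HD) combined the cGAS knockout with zQ175, a neo-deleted knock-in allele. HD mice were heterozygous for that allele, which puts an expanded CAG repeat into the mouse huntingtin gene as a model of Huntington's disease. cGAS-KO mice lacked cGAS, the sensor of cytosolic DNA, and WT mice were C57BL/6J controls. No source used here gives the age or sex of the mice or the part of Cgas that the knockout removes. RNA was preserved in TRIzol, selected for poly(A) tails and made into directional libraries.

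The choroid plexus is a folded epithelium on a core of vessels and connective tissue that hangs into the brain's ventricles and secretes cerebrospinal fluid. Its cuboidal cells carry channels and transporters for ions and water, take folate and hormones across from the blood, and release carrier proteins, transthyretin above all, into the fluid. Several of these genes are near-silent in neurons, so their RNA in a piece of striatum is often read as a sign of adjoining ventricular tissue, but in bulk RNA fewer cells of a type and less RNA per cell cannot be told apart. Some are also transcribed elsewhere in the brain, Enpp2 in oligodendrocytes among them.

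Since the genes moved together, the stretches before their starts are shown for 3 of them, as RefSeq gives them for GRCm38.p6, from 250 bases before to 50 bases after a transcript's start. RefSeq promoters were matched for 5 of the 9 genes (Kl, Aqp1, Calml4, Otx2 and Prlr), 10 promoters in all. Kl, Aqp1 and Calml4 had 1 each, and Otx2 and Prlr had several each. Some windows of Otx2 overlapped, so the 10 were not separate units. They were searched on both strands for the core motif of OTX homeodomain factors, TAATCC, whose opposite strand reads GGATTA, because Otx2 is one of the genes, and for the GC box, GGGCGG, whose opposite strand reads CCGCCC. Capitals mark the matches.
Otx2, chr14:48665060-48665359, minus strand: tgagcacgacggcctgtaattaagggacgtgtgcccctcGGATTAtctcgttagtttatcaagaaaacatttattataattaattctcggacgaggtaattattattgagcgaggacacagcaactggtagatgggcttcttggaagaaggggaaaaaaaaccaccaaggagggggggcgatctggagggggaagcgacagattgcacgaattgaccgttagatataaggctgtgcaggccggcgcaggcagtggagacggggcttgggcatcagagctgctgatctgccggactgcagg
Kl, chr5:150952357-150952656, plus strand: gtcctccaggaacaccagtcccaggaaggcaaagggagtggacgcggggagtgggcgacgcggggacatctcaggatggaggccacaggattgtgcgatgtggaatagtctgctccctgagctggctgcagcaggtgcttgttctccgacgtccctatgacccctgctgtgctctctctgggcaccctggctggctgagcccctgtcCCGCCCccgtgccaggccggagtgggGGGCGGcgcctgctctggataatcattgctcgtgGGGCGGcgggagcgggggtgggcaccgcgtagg
Aqp1, chr6:55336049-55336348, plus strand: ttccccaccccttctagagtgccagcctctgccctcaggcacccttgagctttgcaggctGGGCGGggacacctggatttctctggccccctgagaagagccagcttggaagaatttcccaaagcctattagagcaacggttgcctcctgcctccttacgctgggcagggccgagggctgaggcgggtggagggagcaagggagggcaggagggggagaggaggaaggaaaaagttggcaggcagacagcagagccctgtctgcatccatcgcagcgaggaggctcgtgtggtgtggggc
The OTX core was found in 1 of the 10 promoters, at position -211 from that Otx2 start, while 7.06% of 32851 mouse promoters of the same length hold it. The GC box was found in 3 of 10, with 3 matches in Kl, 1 in Aqp1 at position -190 and 1 in Calml4 at position -26, against 35.7% of all promoters. No match of one motif overlapped a match of the other. These 6 letters being present or absent in a window describes the window only.

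Depth was 59195327 to 72765623 counts per library, and levels are given as CPM, the counts of a gene for each 1000000 counts of its library, after TMM scaling. Ppp1r1b, a defining gene of striatal projection neurons, had 227 to 1052 CPM in every library. Htt, which carries the knock-in, fell by 0.32 ± 0.05 on the log2 scale (SE) in knock-in mice against mice without the allele (edgeR's quasi-likelihood test, adjusted p = 0.00192). Cgas had 0.798 to 1.15 CPM in double mutants, 1.07 to 1.26 CPM in HD, 0.572 to 0.882 CPM in cGAS-KO and 1.32 to 1.56 CPM in WT libraries and was called in no comparison, so counts over the whole gene check the knockout labels only weakly. The mitochondrial share of counts was 11.5% in cGAS-KO replicate 3, against 5.30% to 9.03% in the other 11 libraries, and the 9 choroid plexus genes took 0.0434% to 0.358% of a library's counts. Xist was above 100 CPM in 6 libraries, in which Ttr ranged over 65.6 to 1896 CPM, and at most 100 CPM in the other 6, in which Ttr ranged over 45.7 to 1088 CPM.

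Among the secreted products, Ttr (ENSMUSG00000061808, on chromosome 18 in GENCODE M21, as are all locations given here by chromosome alone) encodes transthyretin, the carrier of thyroid hormone and retinol-binding protein in cerebrospinal fluid. Replicates 1, 2 and 3 had 1088, 1138 and 65.6 CPM of Ttr in double mutants, 827, 1896 and 241 CPM in HD, 781, 860 and 189 CPM in cGAS-KO and 1762, 112 and 45.7 CPM in WT libraries. The means were 764 ± 605 CPM in double mutants, 988 ± 839 CPM in HD, 610 ± 366 CPM in cGAS-KO and 640 ± 973 CPM in WT (SD, n = 3 each). WT replicate 1 and HD replicate 2 were high, replicate 3 was the lowest of each group, and all 4 groups overlapped. Within a group the highest library exceeded the lowest 17.3-fold in double mutants, 7.87-fold in HD, 4.54-fold in cGAS-KO and 38.6-fold in WT.

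Enpp2 (ENSMUSG00000022425, chromosome 15) encodes autotaxin, the secreted enzyme that makes lysophosphatidic acid. Its levels in replicates 1, 2 and 3 were 743, 835 and 422 CPM in double mutants, 818, 1318 and 498 CPM in HD, 697, 704 and 422 CPM in cGAS-KO and 1326, 373 and 352 CPM in WT. The same libraries were high and low as for Ttr, over a narrower 3.77-fold range. Kl (ENSMUSG00000058488, chromosome 5) encodes klotho, a membrane coreceptor for FGF23 that is also shed into cerebrospinal fluid. Kl had 24.0, 23.1 and 8.12 CPM in double mutants, 23.9, 46.0 and 8.40 CPM in HD, 23.0, 23.1 and 10.5 CPM in cGAS-KO and 59.2, 7.96 and 6.40 CPM in WT. WT replicate 1 was again above every other library and WT replicate 3 below every other, 9.24-fold apart.

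Of the receptors, Folr1 (ENSMUSG00000001827, chromosome 7) encodes folate receptor alpha, which carries folate across the choroid plexus epithelium. Folr1 had 5.13, 6.63 and 0.755 CPM in double mutants, 6.15, 11.9 and 2.22 CPM in HD, 5.06, 5.95 and 1.26 CPM in cGAS-KO and 13.4, 1.39 and 0.484 CPM in WT. This 27.8-fold range rested on 34 counts in the lowest and 905 counts in the highest library. Prlr (ENSMUSG00000005268, chromosome 15) encodes the prolactin receptor. Prlr had 36.5, 37.5 and 25.7 CPM in double mutants, 42.6, 52.6 and 25.4 CPM in HD, 34.4, 31.1 and 20.5 CPM in cGAS-KO and 63.5, 17.3 and 16.5 CPM in WT, a 3.84-fold range with the 3 highest values in WT replicate 1 and HD replicates 2 and 1.

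Aqp1 (ENSMUSG00000004655, chromosome 6) encodes aquaporin-1, the water channel of the ventricular face of the epithelium. Aqp1 had 3.03, 4.31 and 0.385 CPM in double mutants, 3.17, 9.62 and 1.34 CPM in HD, 4.89, 4.58 and 1.59 CPM in cGAS-KO and 12.0, 0.908 and 0.697 CPM in WT. Its 31.2-fold range was close to that of Folr1, and double-mutant replicate 3 was its lowest library. Clic6 (ENSMUSG00000022949, chromosome 16) encodes a chloride intracellular channel protein. Clic6 had 29.1, 31.9 and 23.8 CPM in double mutants, 30.6, 47.9 and 21.9 CPM in HD, 30.4, 31.8 and 15.1 CPM in cGAS-KO and 53.5, 19.6 and 17.3 CPM in WT. With a 3.55-fold range it varied least of the 9, and its lowest library was cGAS-KO replicate 3. Calml4 (ENSMUSG00000032246, chromosome 9) encodes a calmodulin-like protein described in the microvilli of brush borders. Calml4 had 3.73, 4.27 and 1.89 CPM in double mutants, 3.85, 6.77 and 2.28 CPM in HD, 4.04, 3.47 and 1.14 CPM in cGAS-KO and 6.49, 2.36 and 1.14 CPM in WT, in which HD replicate 2 and WT replicate 1 again stood highest.

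Otx2 (ENSMUSG00000021848, chromosome 14), the homeodomain transcription factor that the choroid plexus needs to form, followed the others least closely. Otx2 had 9.22, 8.98 and 6.14 CPM in double mutants, 9.13, 12.8 and 9.16 CPM in HD, 6.53, 7.19 and 3.05 CPM in cGAS-KO and 12.4, 4.35 and 3.49 CPM in WT. HD replicate 3, low in the other 8 genes, had as much Otx2 as HD replicate 1. Replicate 3 of each of the other 3 groups was the lowest of its group in Otx2 as well. No source used here says how the counting treated strand or shared exons. Otx2 shares 3.65% of its exon bases with the opposite-strand gene Otx2os1 and 3.98% with Gm49154, Enpp2 5.97% with the opposite-strand Gm26684 and Prlr 1.32% with Gm21973, while the other 5 genes share none in GENCODE M21.

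**Figure D1:**
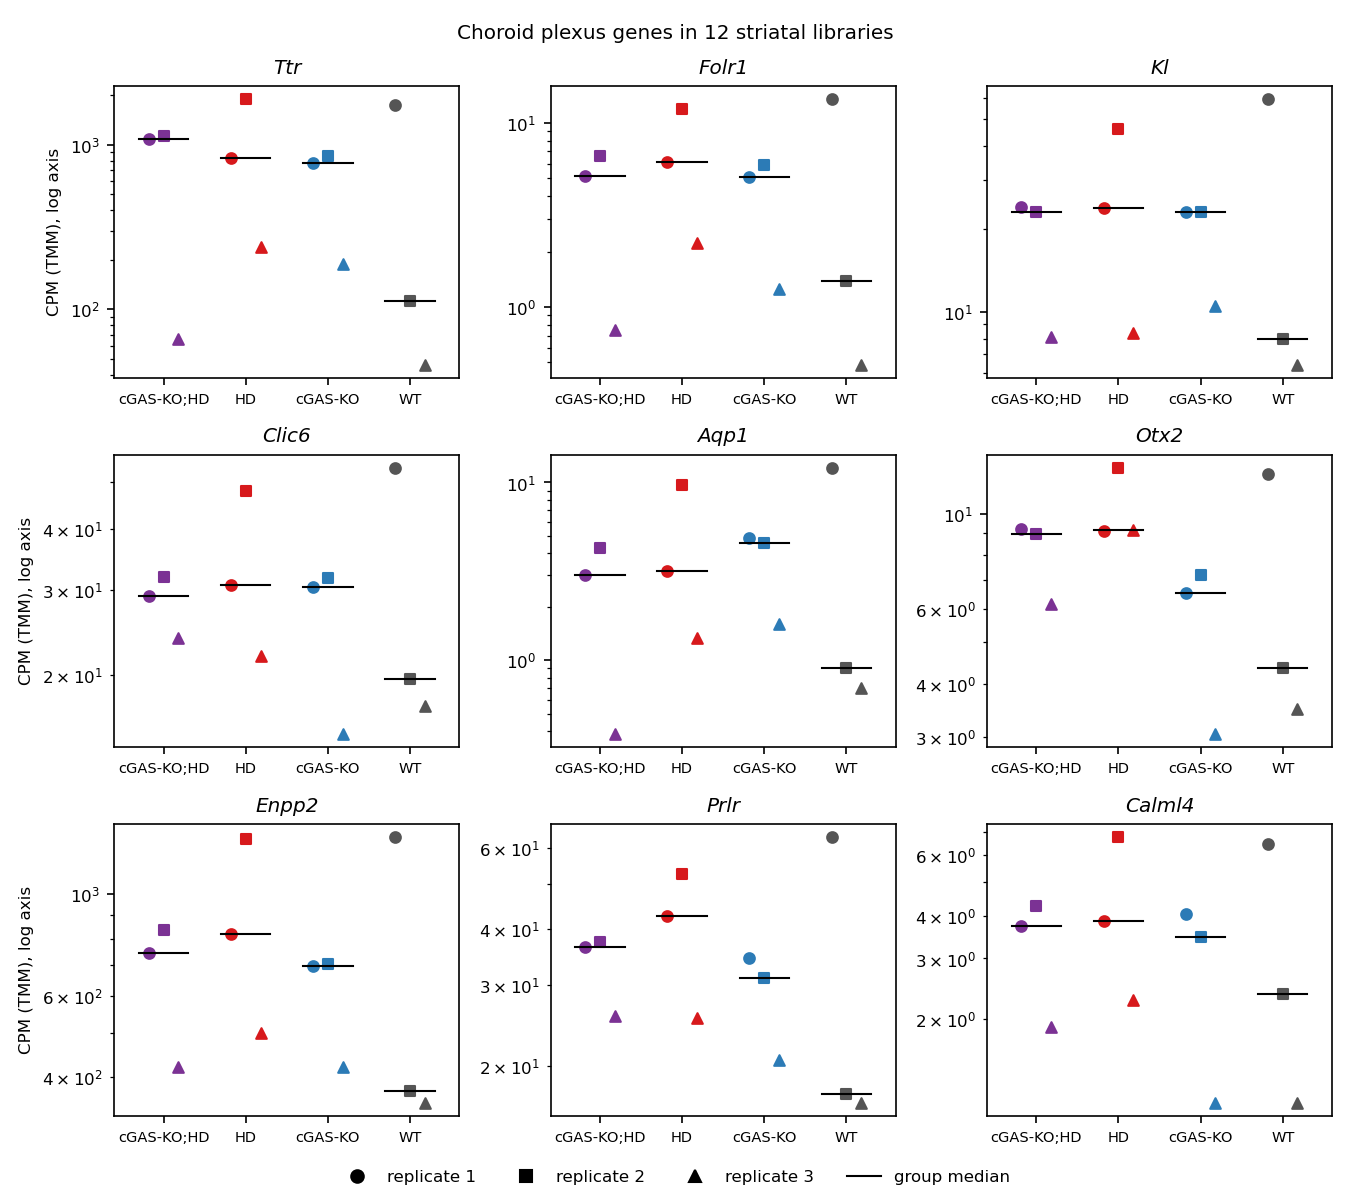
Level of each of the 9 choroid plexus genes in each library (CPM after TMM scaling, log axis), with double mutants (cGAS-KO;HD), HD, cGAS-KO and WT libraries from left to right, 1 point per library with its shape giving the replicate number, and a bar at the group median of 3 libraries. WT replicate 1 and HD replicate 2 lie at the top and the libraries of replicate 3 near the bottom of nearly every panel, and the groups overlap.

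Ordered by Ttr, the 12 libraries had their widest step, 1.70 on the log2 scale, between HD replicate 3 at 241 CPM and cGAS-KO replicate 1 at 781 CPM. The 5 libraries below it were replicate 3 of every group and WT replicate 2, and the 7 above it were all the others. The lower 5 spanned 2.40 log2 units and the upper 7 spanned 1.28, so the step was narrower than the spread of the lower libraries. Both sets of libraries were thus drawn from the values of Ttr. For 7 of the 8 other genes, Otx2 being the exception, all 7 upper libraries exceeded all 5 lower ones, as did 0.371% of all genes tested. On the log2 scale the SD of Ttr over the 12 libraries was 1.88, against a median of 0.255 over all 21309 genes, and 99.77% of genes had a smaller SD than Ttr. The corresponding share was 99.55% for Folr1, 99.49% for Aqp1, 97.53% for Kl, 93.4% for Calml4 and between 79.48% and 86.71% for Otx2, Enpp2, Prlr and Clic6.

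The 9 genes rose and fell together from library to library. Pearson's r of log2 CPM over 12 libraries ran from 0.695 for Aqp1 and Otx2 to 0.986 for Ttr and Folr1, with a median of 0.923 over the 36 pairs. Spearman's rho ran from 0.636 for Aqp1 and Otx2 to 0.979 for Enpp2 and Prlr. In two-sided permutation tests with Benjamini-Hochberg adjustment over the 36 pairs, all 36 were called by r (largest adjusted p = 0.0126) and all 36 by rho (largest adjusted p = 0.03), the smallest p that the 100000 permutations can give being 1e-05. Ttr and Folr1 reached that smallest p by both measures. Without the 2 libraries farthest from the median of the first gene of a pair, r ran from 0.663 to 0.979. The genes had been chosen with results of these libraries known, and the pairs share libraries, so the 36 tests are not 36 separate pieces of evidence.

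Because the libraries lay on either side of a step in Ttr, the correlations were also taken among the 7 upper libraries alone. There r ran from 0.643 for Aqp1 and Otx2 to 0.987 for Kl and Clic6, with a median of 0.921. An exact permutation test with Benjamini-Hochberg adjustment called 35 of the 36 pairs (largest adjusted p = 0.107). Ttr and Folr1 had r = 0.911 there (exact permutation test, adjusted p = 0.0293). Taken as deviations from the 4 group means, r ran from 0.882 for Aqp1 and Otx2 to 0.994 for Kl and Enpp2, with a median of 0.941.

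**Figure D2:**
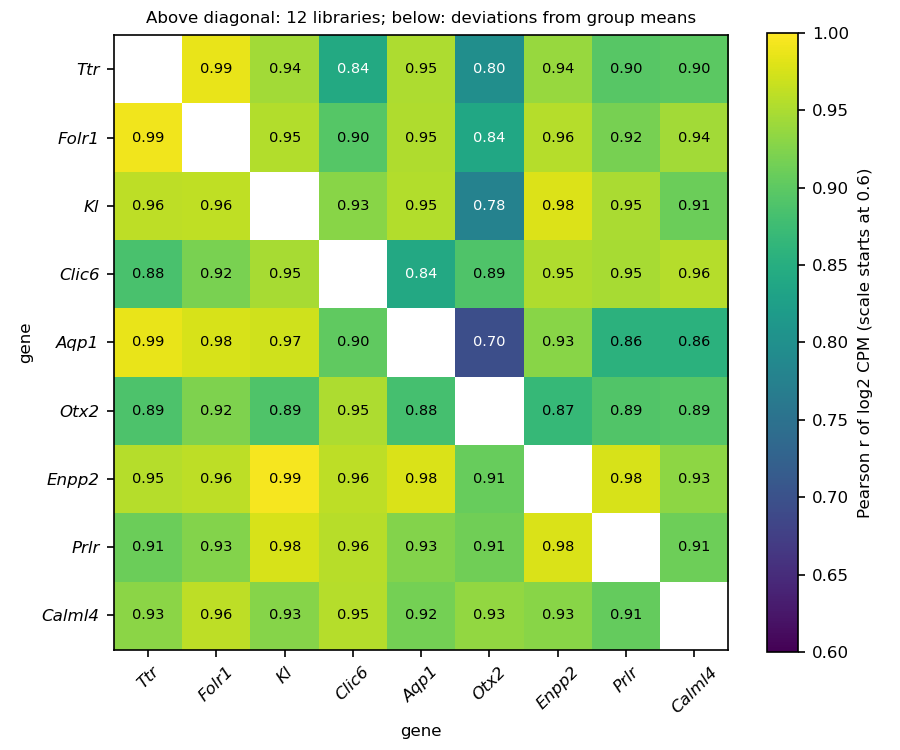
Pearson's r of log2 CPM for each pair of the 9 genes, over the 12 libraries above the diagonal and over deviations from the group means below it, on a colour scale that starts at 0.6. Otx2 gives the lower values above the diagonal, down to 0.695 with Aqp1, and every value below the diagonal is at least 0.882.

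The genes differed in how far they fell when Ttr fell. With 1 mean per group kept in the model, the slope of each gene on log2 Ttr was fitted across all genes by edgeR's quasi-likelihood test, a test chosen after the data had been seen. Folr1 changed by 0.83 ± 0.04 and Aqp1 by 0.83 ± 0.05 log2 units per log2 unit of Ttr (SE, adjusted p = 1.11e-06 and 3.98e-06). Kl followed at 0.57 ± 0.05 and Calml4 at 0.42 ± 0.06 (adjusted p = 0.000337 and 0.00422). Enpp2 had a slope of 0.34 ± 0.03, Prlr of 0.29 ± 0.04, Otx2 of 0.27 ± 0.04 and Clic6 of 0.26 ± 0.04 (adjusted p = 0.000337, 0.00915, 0.0213 and 0.0235). All 8 genes were thus called, where 0.352% of all genes tested were called upward and none downward. Their slopes all stayed positive when any 1 library was left out, but 4 of 8 were called without WT replicate 1 and 5 without WT replicate 3, and Clic6, the shallowest, lost its call in 7 of the 12 such refits, Otx2 in 4, Prlr in 3 and Calml4 in 1, while Folr1, Aqp1, Kl and Enpp2 were called in all 12. Replicate 3 had the least Ttr in every group, and with the replicate number as a block 2 of the 8 genes were called. These were Folr1 at 0.80 (adjusted p = 0.00648) and Aqp1 at 0.96 (adjusted p = 0.00404), while the other 6 had slopes between 0.28 and 0.62 with adjusted p from 0.165 to 0.999, and 12 of all genes tested were called.

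In CPM, a straight line of each gene on Ttr was carried on to a Ttr of 0, a level that no library had. At a Ttr of 0 the line gave 0.226 CPM of Folr1, 4.49% of its mean over the 12 libraries, and -0.042 CPM of Aqp1. The line left 4.00 CPM of Kl, or 18.2% of its mean, and 1.38 CPM of Calml4, or 39.9%. For Enpp2 it left 327 CPM (46.2%), for Prlr 18.2 CPM (54.0%), for Clic6 16.7 CPM (56.8%) and for Otx2 4.48 CPM (58.2%). The slopes of Folr1 and Aqp1 on the log2 scale were the nearest to 1 of the 8, but their 95% intervals, from 0.75 to 0.92 for Folr1 and from 0.72 to 0.93 for Aqp1, lay below 1. The cells that the remaining RNA came from were not tested.

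**Figure D3:**
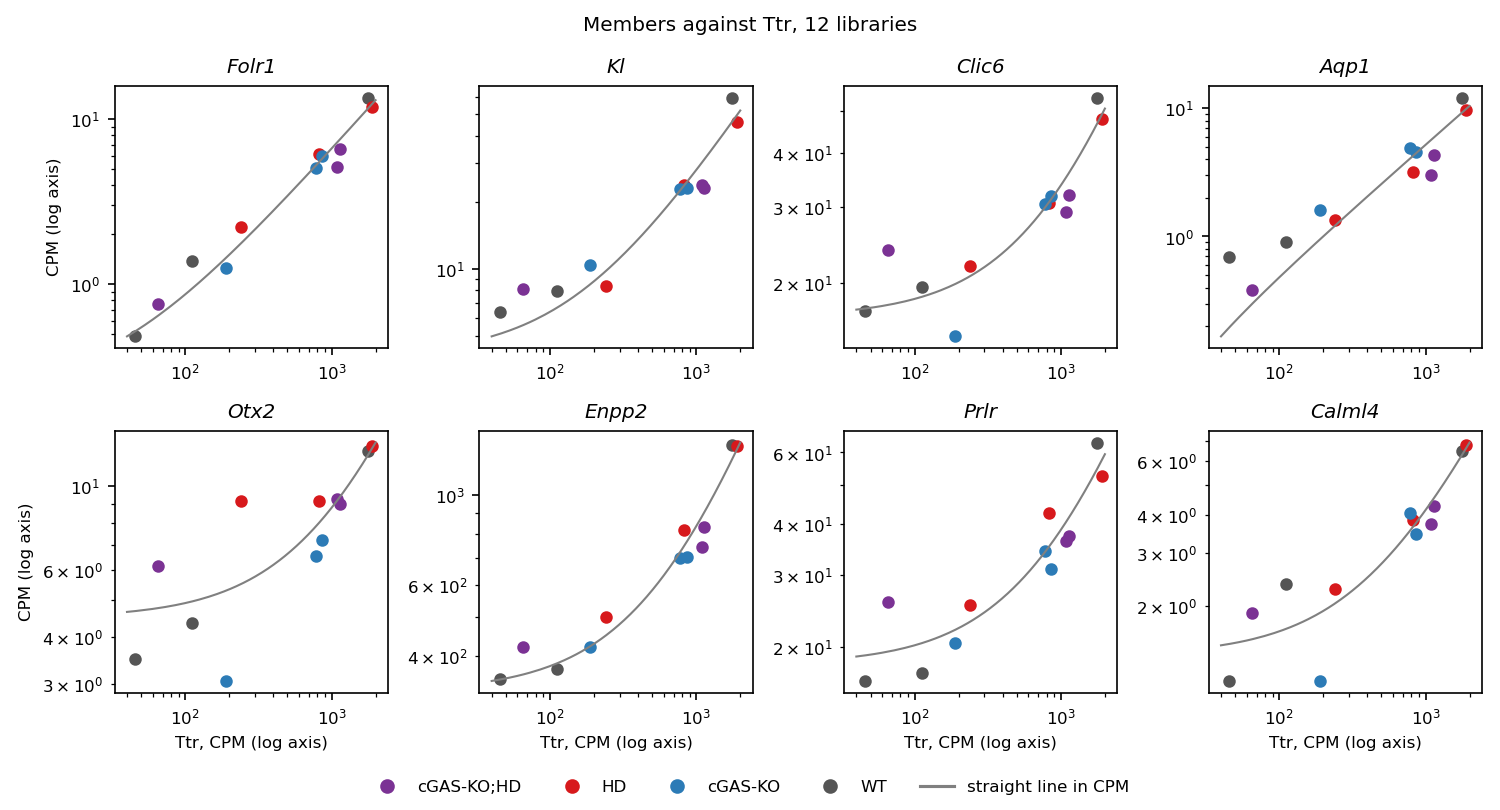
Level of each of 8 choroid plexus genes against Ttr in the 12 libraries (CPM, both axes logarithmic), coloured by group, with the straight line fitted in CPM, which bends on log axes. Folr1 and Aqp1, with slopes of 0.83 each on the log2 scale, are the steepest, while Clic6, Prlr, Otx2 and Enpp2 level off at the left.

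Per kilobase of exon (GENCODE M21 models), median levels fell in the order Ttr, Enpp2, Clic6, Kl, Folr1, Prlr, Otx2, Aqp1 and Calml4. Ttr had a median of 678 CPM per kb, Enpp2 of 121 CPM per kb and Clic6 of 7.61 CPM per kb. Enpp2 lay above Clic6 and Clic6 above Kl in 12 of 12 libraries, and Ttr lay above Enpp2 in 10 of 12, the exceptions being WT replicate 3 (38.5 CPM per kb of Ttr and 60.8 of Enpp2) and double-mutant replicate 3 (55.3 of Ttr and 73.0 of Enpp2). From Kl at 2.47 CPM per kb down to Otx2 at 1.91 CPM per kb the medians were close, and Kl lay above Folr1 in 7 libraries and Folr1 above Prlr in 4 libraries, so the order of these neighbours changed from library to library. Aqp1 and Calml4, with medians of 1.18 and 0.988 CPM per kb, changed places in 4 of the 12 libraries.

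None of the 9 genes was called in any comparison of genotypes, and the intervals were wide. For HD against WT, Ttr changed by 0.63 ± 1.49 on the log2 scale (SE, edgeR's quasi-likelihood test, adjusted p = 0.877), with a 95% interval from -2.78 to 4.04. That value rested on single libraries: it was 3.63 without WT replicate 1 (adjusted p = 0.206), -0.27 without HD replicate 2 (0.968), 0.13 without WT replicate 2, 0.08 without WT replicate 3 and 1.08 without HD replicate 3, and limma-voom gave 1.80 (0.513), none of them called. The median log2 change of the 9 genes was 0.36 in that comparison, against 0.012 over all genes, and 0 of 9 were called where 4.1% of all genes tested were. For double mutants against cGAS-KO, Ttr changed by 0.32 ± 1.48 (adjusted p = 0.95), the median over the 9 genes was 0.14 against 0.0026 over all genes, and 0 of 9 were called against a background of 3.96%. Leaving out 1 library moved Ttr there over -0.11 to 0.85. These intervals allow a change of several-fold in either direction, so the data do not show that the groups had equal levels.

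The comparisons of cGAS genotypes called none of the 9 genes either. For double mutants against HD, Ttr changed by -0.37 ± 1.48 (adjusted p = 0.954) and the median of the 9 genes was -0.38, with 0 of 9 called against 0.00469% of all genes. Leaving out 1 library moved Ttr over -0.83 to 0.52, the highest being without HD replicate 2. For cGAS-KO against WT, Ttr changed by -0.07 ± 1.48 (adjusted p = 0.996; 2.96 without WT replicate 1 and -0.62 without WT replicate 3, neither called) and the median was -0.23, with 0 of 9 called against 0.0% of all genes. These last comparisons share libraries with the earlier ones. The interaction of knock-in and cGAS genotype (background 0.00469%), the cGAS effect averaged over knock-in genotypes (0.0%) and the test for any difference among the 4 groups (5.61%) called 0 of 9 genes each. No gene had an unadjusted p under 0.05 in any of these tests or in the knock-in effect averaged over cGAS genotypes, and DESeq2 and limma-voom called 0 of 9 in every comparison too.

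Otx2 came closest to a call. In the knock-in effect averaged over cGAS genotypes it changed by 0.58 ± 0.32 on the log2 scale (SE, adjusted p = 0.272 by edgeR), with a 95% interval from -0.12 to 1.27, and 0 of 9 genes were called where 13.2% of all genes were. WT replicate 1 decided that outcome. Without WT replicate 1 the averaged change was 0.96 for Otx2 (adjusted p = 0.0119) and 0.72 for Prlr (adjusted p = 0.0325), both called, and in HD against WT it was 1.39 for Otx2 (adjusted p = 0.0297) and 1.23 for Prlr (adjusted p = 0.0366), again both called. In that setting 2 WT libraries remained, both among the lower 5 in Ttr and both low in Xist (1.15 and 2.53 CPM). HD replicates 1, 2 and 3 had 1238, 1149 and 0.251 CPM of Xist, so genotype and Xist level partly went together in that refit. They also did so with all 12 libraries, to a lesser degree, as WT replicate 1 had 1232 CPM of Xist. No other single library brought any of the 9 genes to a call. Over all genes, 1532 were called in HD against WT without WT replicate 1, against 873 with all 12 libraries. In the averaged knock-in effect, leaving out 1 library gave 1784 to 3596 calls over all genes, against 2816 with all 12 libraries.

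With all 12 libraries, the groups took up less of the variation of these genes than of the median gene. Of the variance of log2 CPM over the 12 libraries, the part between groups was 3.70% for Kl, 7.13% for Clic6, 9.08% for Aqp1, 9.55% for Calml4, 10.8% for Enpp2, 11.0% for Folr1, 13.2% for Ttr, 13.4% for Prlr and 35.9% for Otx2. The median was 10.8% over the 9 genes, against 37.15% over all 21309 genes tested. It was 41.4% over the 9 genes without WT replicate 1, while the 37.15% over all genes was taken with all 12 libraries. The low median of the 9 genes thus rested on that 1 library. In none of the 4 comparisons of pairs of groups did any of the 9 genes have library values without overlap, while 27.7% of all genes had none in HD against WT, 21.5% in double mutants against cGAS-KO, 17.1% in double mutants against HD and 8.79% in cGAS-KO against WT.

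**Figure D4:**
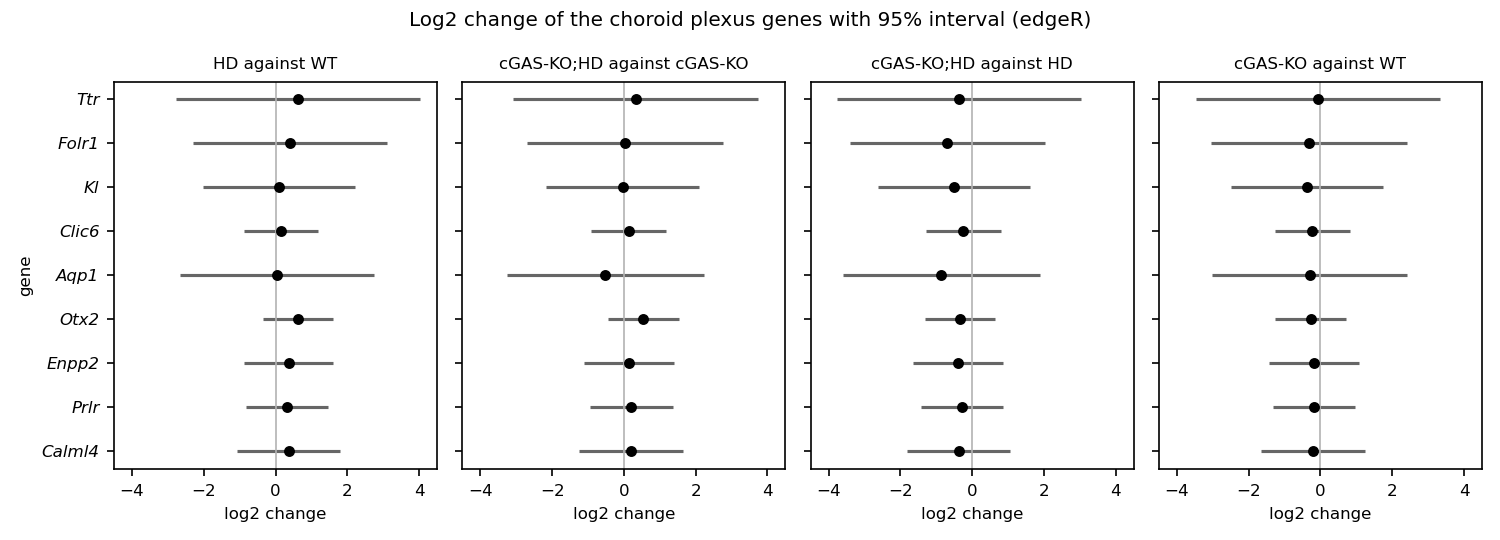
Log2 change of the 9 genes with its 95% interval (edgeR) in HD against WT, double mutants (cGAS-KO;HD) against cGAS-KO, double mutants against HD and cGAS-KO against WT. All 36 intervals include 0, and those of Ttr, Folr1 and Aqp1 are wider than those of Otx2 and Clic6.

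A wider list of 30 other choroid plexus genes moved with the 9. It was written from general knowledge but with earlier results of these libraries known, so it was not independent of them. All 30 passed the filter, their mean log2 CPM correlated with the mean of the 9 genes at r = 0.998 over the 12 libraries and at r = 0.998 as deviations from group means, and in 21 of 30 all of the upper 7 libraries exceeded all of the lower 5, beside 0.371% of all genes. With the same slope test, 23 of 30 were called, all upward, against 12 without WT replicate 1 and 7 with the replicate block. Among those of at least 1 CPM, 3 channels or transporters of the epithelium and a membrane protein had the steepest slopes. Kcne2, a potassium channel subunit, changed by 0.99 ± 0.03 per log2 unit of Ttr (adjusted p = 1.89e-08), Slc4a5, a sodium bicarbonate cotransporter, by 0.96 ± 0.06 (4.45e-06), Tmem72, a membrane protein, by 0.93 ± 0.06 (5.85e-06) and Kcnj13, a potassium channel, by 0.90 ± 0.06 (2.25e-05). The ratio of Kcne2 to Ttr differed 1.35-fold between the lowest and the highest of the 12 libraries, that of Folr1 to Ttr 2.63-fold, that of Aqp1 to Ttr 5.47-fold, that of Kl to Ttr 6.90-fold and that of Otx2 to Ttr 13.9-fold.

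Of the 30 genes, the 4 with the most CPM were Htr2c, Cab39l, Ace and Car12, and these followed the 9 genes to unequal degrees. Ace, the angiotensin-converting enzyme, and Cab39l, a partner of kinases that regulate ion transport, had r = 0.908 and 0.881 with the mean of the 9 genes. Htr2c, the serotonin 2C receptor, had r = 0.662, and Car12, a membrane carbonic anhydrase, r = 0.171. Car12 had 21.9, 23.8 and 14.3 CPM in double mutants, 24.6, 32.3 and 9.83 CPM in HD, 54.6, 46.3 and 55.3 CPM in cGAS-KO and 57.1, 38.8 and 43.6 CPM in WT, so that each mouse with the knock-in allele lay below each mouse without it.

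Genotype calls in the wider list were few. For HD against WT, 1 of 30 was called, beside 4.1% of all genes. This was Htr2c at 0.46 ± 0.12 on the log2 scale (SE, edgeR, adjusted p = 0.0479). Its call was lost when WT replicate 2, WT replicate 3 or any 1 of the HD replicates was left out. In the averaged knock-in effect 3 of 30 were called: Car12 fell by 1.22 (SE 0.25, adjusted p = 0.0103), Htr2c rose by 0.39 ± 0.08 (adjusted p = 0.00776) and Cdkn1c, a cell cycle inhibitor, rose by 0.69 ± 0.16 (adjusted p = 0.014). That is 10.0% of the list, beside 13.2% of all genes. Without WT replicate 1, 3 of 30 were called in HD against WT and 5 of 30 in the averaged knock-in effect. Over all genes, that refit called 1532 in HD against WT, against 873 in the main model. In the averaged knock-in effect, leaving out 1 library gave 1784 to 3596 calls over all genes, against 2816. None of the 30 was called in the other comparisons by the main edgeR model, where at most 3 had an unadjusted p under 0.05. DESeq2 called 2 in HD against WT, 1 in double mutants against cGAS-KO and 3 in the test for any difference. Over all genes it called 1801, 1662 and 2795 there. In each of the last 2 comparisons, limma-voom, the 1 CPM filter and the Xist covariate called 1, and the replicate block called 2. With log2 Ttr as a covariate 4 and 3 were called there, beside 5.14% and 4.72% of all genes. Leaving out 1 library gave 0 to 2 in the test for any difference, and 607 to 1837 over all genes.

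Markers of other cells of the region moved with the 9 genes to a lesser degree. The ependyma lines the ventricles, and the mean log2 CPM of 15 ependymal genes correlated with that of the 9 genes at r = 0.754 over the 12 libraries and 0.855 as deviations from group means. Foxj1, the transcription factor of motile cilia, ranged over 11.6 to 27.4 CPM with r = 0.698, and Ak7, an adenylate kinase of cilia, over 6.29 to 14.3 CPM with r = 0.705. Rarres2, about as abundant as Ak7, ranged over 7.07 to 16.9 CPM with r = 0.284, the lowest of the list. The highest was 0.8105. Oligodendrocyte and myelin genes had r = 0.606 as a list, genes of thalamus, septum, pallidum and habenula r = 0.541 and microglial genes r = 0.520. Single genes of these lists, in that order, lay between 0.118 and 0.610, between -0.396 and 0.659 and between -0.304 and 0.610. Cortical projection neuron genes ran the other way at r = -0.606, with single genes between -0.674 and 0.571. Nrgn, a calmodulin-binding protein of forebrain neurons and the most abundant of that list, ranged over 129 to 782 CPM with r = -0.516, and Slc17a7, the vesicular glutamate transporter of cortical neurons, over 34.8 to 620.6 CPM with r = -0.674.

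The remaining lists had smaller coefficients. They were 0.274 for astrocytes, 0.244 for fibroblasts of the meninges and vessels, 0.081 for endothelial and mural cells, 0.060 for erythrocytes and -0.243 for striatal projection neurons. Without WT replicate 1 the sign turned for astrocytes (-0.253) and erythrocytes (-0.332), and without double-mutant replicate 3 for endothelial and mural cells (-0.303). Of the wider choroid plexus list 19 of 30 genes reached r of at least 0.9 with the mean of the 9 genes, and 0 genes of the other 10 lists did. These coefficients describe 12 libraries, and what part other tissue had in the levels of the 9 genes was not tested.

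**Figure D5:**
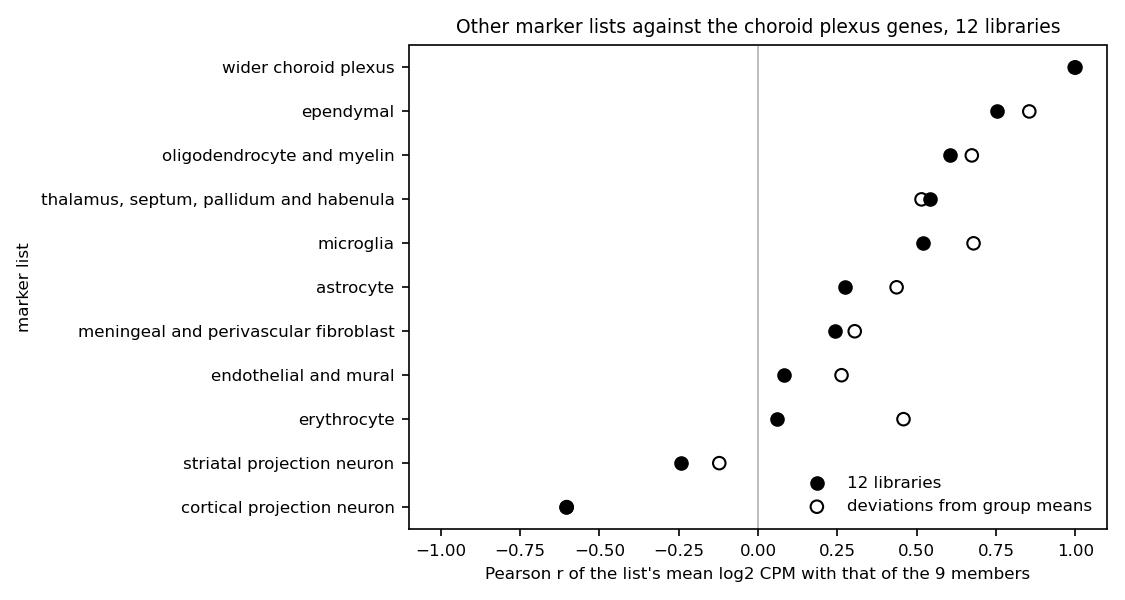
Pearson's r between the mean log2 CPM of each of 11 marker lists and that of the 9 choroid plexus genes, over 12 libraries (filled) and over deviations from group means (open). The wider choroid plexus list lies at 0.998, ependymal genes follow at 0.754 and 0.855, and cortical projection neuron genes lie at -0.606 and -0.603.

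Among all 15248 genes with a mean of at least 1 CPM, the 9 genes aside, 35 (0.23%) had r of at least 0.9 with the mean log2 CPM of the 9 genes over the 12 libraries, 0 had r of -0.9 or below, and the median was 0.016. The 10 with the highest r were Mfrp (0.987), 1500015O10Rik (0.986), Kcne2 (0.983), Slc2a12 (0.980), Slc4a5 (0.976), Tmem72 (0.974), Trpv4 (0.973), Cldn2 (0.969), Sostdc1 (0.968) and F5 (0.967). All but Mfrp stand on the wider list, which was written with earlier results of these libraries known. Mfrp, a frizzled-related membrane protein, had 3.96, 7.65 and 0.484 CPM in double mutants, 5.78, 16.2 and 1.22 CPM in HD, 4.61, 5.44 and 1.22 CPM in cGAS-KO and 18.4, 1.03 and 0.270 CPM in WT, with the same 5 libraries low as for Ttr. The 5 with the lowest r were Acp7 (-0.865), Wnt10a (-0.863), Ap2a2 (-0.845), Ddx49 (-0.843) and Dmp1 (-0.842).

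With log2 Ttr added to the model as a covariate, a setting chosen after the data had been seen, Aqp1 was the 1 gene of the other 8 to be called, and in 1 test alone. No gene of the 8 was called in HD against WT (background 2.01%), double mutants against cGAS-KO (5.14%) or the test for any difference (4.72%). Aqp1 fell by 0.71 (SE 0.16) on the log2 scale in the averaged knock-in effect (edgeR, adjusted p = 0.0144), where 10.9% of all genes were called, a share near 1 in 8. Double-mutant replicates 1 and 2 had 3.03 and 4.31 CPM of Aqp1 beside 1088 and 1138 CPM of Ttr. In cGAS-KO replicates 1 and 2, Aqp1 had 4.89 and 4.58 CPM beside a lower 781 and 860 CPM of Ttr. HD replicate 2 had 9.62 CPM of Aqp1 beside 1896 CPM of Ttr, and WT replicate 1 had 12.0 CPM beside 1762 CPM. The values of all 12 libraries are given above. Otx2 changed by 0.50 ± 0.15 in that model (SE, adjusted p = 0.0589) and was not called.

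The same covariate moved the genotype calls over all genes. For HD against WT, 429 genes were called with it and 873 without it, and 415 were called both ways, 96.7% of the genes called with it and 47.5% of those called without it. For double mutants against cGAS-KO, 1095 were called with it and 843 without it, 836 of them both ways. Single libraries moved the HD against WT count as far: it was 1532 without WT replicate 1, 282 without WT replicate 2, 247 without WT replicate 3, 265 without HD replicate 2 and 324 without HD replicate 3. For double mutants against cGAS-KO it was 386 without cGAS-KO replicate 1 and 339, 321 and 475 without double-mutant replicates 1, 2 and 3. Whether the change in calls came from the choroid plexus genes or from anything else that varied with Ttr was not tested.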

How the data were processed

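Poly(A) RNA of striatum from 12 mice was sequenced, per the labels. What the authors deposited is a table for each library with a whole-number read count for every Ensembl gene. No source used here names their aligner, counting rule, annotation or genome build. GENCODE M21 (GRCm38) gave symbols to 55141 of 55487 IDs (99.4%). Filtering with filterByExpr (minimum count 10, minimum total 15) left 21309 genes, and library sizes were TMM-scaled. The edgeR quasi-likelihood model (robust) had a mean for each of the 4 groups and 8 residual degrees of freedom, and the biological coefficient of variation was 18.1%. A gene was called at an adjusted p under 0.05 (Benjamini-Hochberg, over all genes tested). Correlations used log2 CPM with a prior count of 2. The slope on log2 Ttr and the covariate Ttr were added after the data had been seen.

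The 9 genes and all lists were chosen with earlier results of these data known. Named genes were all 9, of each list those with the most CPM and those called, the 10 genes most and the 5 least correlated with the 9, Htt and Cgas. Others were named after their values were seen, Ppp1r1b, Xist and Ddx3y as checks. Groups and replicate numbers came from sample titles. The scripts were tested on simulated data. Alternatives were DESeq2 and total-count scaling, no filter and a filter of 1 CPM in 3 libraries, DESeq2's test, limma-voom, a replicate block, Xist as a covariate, a prior count of 0.5, deviations from group means, and leaving out each library. The tools were Python 3.11.15 with numpy 2.4.6, scipy 1.17.1 and pandas 2.3.3, and R 4.3.3 with DESeq2 1.42.0, edgeR 4.0.16 and limma 3.58.1.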

Additional observations from a re-analysis of the deposited data

How the results depend on the processing

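In HD against WT the 95% interval ran from -2.78 to 4.04 for Ttr and from -0.89 to 1.19 for Clic6. No called value changed sign under any alternative, while 173 of 1100 recomputed log2 changes of the 9 genes that were not called did. The number of the 9 genes called was 0 under the other scalings, filters and tests, and differed in these cases: leaving out 1 library gave 0 to 2 in HD against WT and 0 to 2 in the averaged knock-in effect, 2 each time being without WT replicate 1, and Ttr as a covariate gave 1 in the averaged knock-in effect. In HD against WT, 1532 of all genes were called without WT replicate 1, against 873 in the main model. Leaving out 1 library moved the median share of variance between groups over 4.46% to 41.4% and the number of the 8 other choroid plexus genes with a called slope on Ttr over 4 to 8. All 36 pairs stayed correlated under the other scalings, prior count and group centring and without each library, with a median r between 0.902 and 0.944. The cause of these changes was not tested.

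Groups share replicate numbers, which the labels do not explain. Same-numbered libraries deviated from their group means with r between -0.231 and 0.203, above 0.1 in 2 of 18 pairs, and 2 of 12 libraries correlated best with one of their own number, so the numbers were not taken to pair mice. With the replicate block, 0 of the 9 genes were called in every comparison, 2 of 8 kept a called slope on Ttr and 12 genes in all had one, against 75 without the block. Over all genes the block gave 507 calls in HD against WT and 777 in the test for any difference, against 873 and 1196 without it, and DESeq2 gave 1801 and 2795, as well as 1662 against 843 in double mutants against cGAS-KO. Genes with a slope on Ttr numbered 24 without WT replicate 1 and 40 without WT replicate 3. The call of Htr2c in HD against WT was lost with total-count scaling, the 1 CPM filter and the Xist covariate.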

Other observations

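Of the 75 genes with a called slope on Ttr within groups, 44 stand neither among the 9 genes nor on the wider list. By adjusted p (edgeR's quasi-likelihood test over all genes) they are led by Mfrp with a slope of 1.05 ± 0.06 log2 units per log2 unit of Ttr (SE, adjusted p = 3.98e-06), Prr32 with 0.72 ± 0.06 (4.86e-05), 2900040C04Rik with 0.90 ± 0.07 (6.07e-05) and Oca2 with 0.74 ± 0.07 (0.000161). Oca2 encodes a melanosomal anion transporter. Shallower slopes were called for Nid2, a basement membrane nidogen, at 0.27 ± 0.03 (0.00176), for Sema3b, a secreted semaphorin, at 0.39 ± 0.05 (0.0018), for Cldn1, a claudin of tight junctions, at 0.35 ± 0.05 (0.00699), for Trpm3, a cation channel, at 0.19 ± 0.03 (0.00402) and for Slco1c1, a thyroid hormone transporter, at 0.14 ± 0.02 (0.00915). These genes were named after their values were seen, from the 10 with the smallest adjusted p, and the number of genes called was 24 without WT replicate 1 and 40 without WT replicate 3.

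At the other end of the correlation with the mean of the 9 genes, Wnt10a, a secreted Wnt ligand, had 1.06, 1.55 and 1.80 CPM in double mutants, 1.20, 0.716 and 1.38 CPM in HD, 2.06, 1.35 and 2.95 CPM in cGAS-KO and 0.668, 2.28 and 3.02 CPM in WT. It was low in WT replicate 1 and HD replicate 2, where Ttr was highest, and high in WT replicates 2 and 3 and cGAS-KO replicate 3. The order was not strict. With 781 CPM of Ttr, cGAS-KO replicate 1 had more Wnt10a than double-mutant replicate 3 and HD replicate 3, which had 65.6 and 241 CPM of Ttr.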
